A study of Mus musculus with 3 samples.

Results

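RNA levels of 10 genes that answer to low oxygen or modify collagen were compared in day 8 mouse embryoid bodies. They comprised P4ha1 and P4ha2, which encode prolyl 4-hydroxylases of collagen, Plod1 and Plod2, which encode lysyl hydroxylases, the oxygen sensors Egln1 and Egln3, and the hypoxia-induced genes Vegfa, Ndrg1, Bnip3 and Ankrd37. The genes were chosen by name, with every probe whose RefSeq accession belongs to one of these symbols, from 21153 named genes on the array. The choice was made with earlier results of these data known, so the counts below describe the set and do not test it. All 10 were measured, by 16 probes in all, and all 16 passed the filter on dim probes.

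One side of the comparison was embryoid bodies of Hopx-/- embryonic stem cells grown with XAV939 at 12.5 µM, called null cultures with XAV939 here. The other was embryoid bodies of Hopx+/- cells without it, called heterozygous cultures. XAV939 inhibits tankyrase and thereby lowers Wnt/β-catenin signalling, and HOPX is a homeodomain protein without DNA binding of its own that is made in the developing heart. Each of 3 arrays held both RNAs in 2 colours, so the data are 3 replicates of a single ratio. Genotype and inhibitor changed together and cannot be told apart, and no wild-type culture or untreated null culture was analysed here. The embryonic stem cells came from blastocysts and were kept on feeder cells, and the number of lines per genotype is not stated in the sources used here. Both cultures received the same cardiac differentiation medium, which held VEGF at 5 ng/ml, bFGF at 10 ng/ml, FGF10 at 12.5 ng/ml and ascorbic acid at 1 mM.

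Hypoxia-inducible factor (HIF) is a transcription factor made of an oxygen-regulated alpha subunit, such as HIF1A or EPAS1, and a constant partner, ARNT. The EGLN enzymes hydroxylate prolines of the alpha subunit with oxygen, iron and 2-oxoglutarate, after which the VHL ligase marks it for destruction. When oxygen is short the factor persists and activates genes of glucose use, vessel growth, mitochondrial turnover and matrix assembly, EGLN3 itself among them. Collagen prolyl 4-hydroxylases and lysyl hydroxylases belong to the same enzyme family as the EGLN proteins. They stabilise the collagen triple helix and prepare its cross-links, and they use ascorbate to keep their iron reduced.

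Hopx, the deleted gene, was lower in the null cultures with XAV939 on every array, with signals of 251, 221 and 232 against 1582, 1483 and 1533 in heterozygous cultures, a log2 ratio of -2.71 ± 0.05 (SD, n = 3). Whether its probes lie in the deleted stretch is unknown here. Array 3 ran opposite to its labelled dyes, its ratios correlating at -0.856 and -0.894 with those of arrays 1 and 2 over all probes. Its sign was turned, as in the authors' deposited values. Which culture is on top is therefore taken from the labelled dyes of the other arrays and from Hopx, and is likely but not settled. Were it reversed, every sign below would turn. Ratios are log2 of null with XAV939 over heterozygous, so negative values are lower in the null cultures with XAV939. Signals are normalised spot intensities in arbitrary units and are compared between cultures over the same probe or, for marker lists, the same set of probes. Between 56.6% and 66.6% of probes were well above background in the null cultures with XAV939, against 61.6% to 68.0% in heterozygous cultures. In bulk RNA, fewer cells of a type and less RNA per cell cannot be told apart.

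Of the 10 members, 9 were lower in the null cultures with XAV939 and 0 were higher, at an adjusted p below 0.05 by limma across 14705 genes, where 33.0% of all genes were called lower and 31.5% higher. The median log2 ratio of the members was -1.61, against -0.01 over all genes. In either direction 64.5% of all genes were called. Plod1 was the member that did not pass. The ratio was below 0 on all 3 arrays for the 9 called members, as for 39.5% of all genes, and for Plod1 on 2 arrays of 3. A fall of 1 or more on the log2 scale was called for 7 members, and for 9.55% of all genes. Of the 16 probes, 14 were called lower in a fit over all tested probes, where 31.4% were; the other 2 were those of Plod1. With median centring in place of loess, 60.0% of called genes were higher instead of 48.9%, and the median of all genes moved to 0.10. Without array 3, all 10 members were called lower, and without array 1 or array 2, 7 were, the others being Plod1, Egln1 and Ankrd37. From the lowest mean ratio upwards the order was Ndrg1, Plod2, P4ha1, P4ha2, Bnip3, Vegfa, Egln3, Ankrd37, Egln1 and Plod1.

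**Figure D1:**
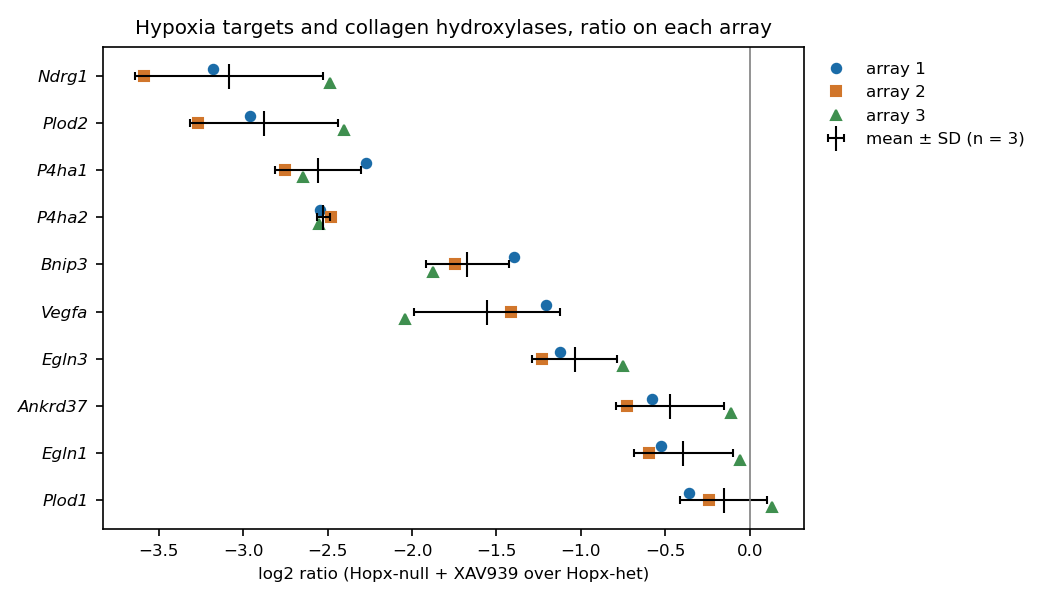
Log2 ratio of null cultures with XAV939 over heterozygous cultures for each member on each of the 3 arrays, with the mean and its SD. Ndrg1, at -3.08, was the lowest mean and Plod1, at -0.16, lay nearest 0.

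**Figure D2:**
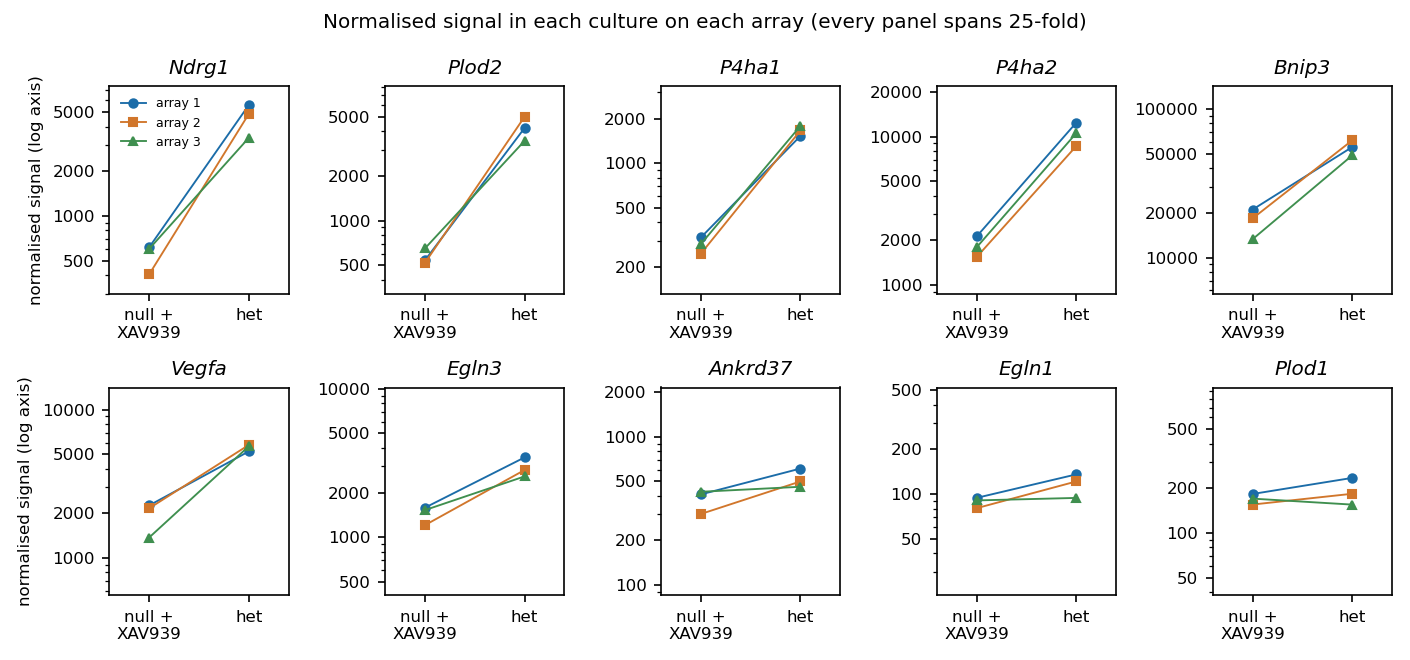
Normalised signal of each member's brightest probe on a log axis, null cultures with XAV939 left of heterozygous cultures, 1 point per array, with a line joining the signals of an array. The points of P4ha1, P4ha2, Plod2 and Ndrg1 lie apart between the cultures, and those of Plod1 overlap.

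Markers of other cells moved too. All 12 visceral endoderm markers, 11 of 12 parietal endoderm markers (Thbd, at 0.39 ± 0.06, was higher) and all 12 cardiomyocyte markers were lower, and all 12 pluripotent and epiblast markers higher. Summed signals of the visceral endoderm list were 28951 to 46359 in null cultures with XAV939, against 250926 to 301478 in heterozygous cultures, and of the parietal endoderm list 42311 to 65398, against 266224 to 300373. The cardiomyocyte list had 70692 to 81956, against 262089 to 291113, the pluripotent list 128426 to 161356, against 16937 to 23258, and the fibroblast and feeder list (Col1a1, Postn, Lum and Col1a2 lower and Thy1 higher of 9) 19620 to 30405, against 33972 to 49335. The endothelial list (Tek lower and 6 higher of 10) had 27237 to 32760, against 25817 to 27781. The Tek call was lost under 9 alternatives, leaving out array 2 or array 3 among them. With local backgrounds that the scanner software marked as outliers kept (marked backgrounds kept, below), 3 endothelial markers were higher. The Thbd call was lost without array 1, without array 2, with median centring, with marked backgrounds kept and in the authors' deposited values. With marked backgrounds kept 2 fibroblast markers were lower. In the main fit the median of the fibroblast list was -0.18, while its sum follows its brighter probes. Every tested marker of these lists was well above background in both cultures. The parietal endoderm and fibroblast lists hold collagen genes that are also counted among the collagen chains. The part of these cells in the members' values was not tested.

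Of the 4 collagen hydroxylases, P4ha1, P4ha2 and Plod2 were lower in the null cultures with XAV939, by 5.76-fold to 7.34-fold, and Plod1 did not pass the test. P4ha1, the catalytic subunit of the main collagen prolyl 4-hydroxylase, had signals of 316, 246 and 286 in null cultures with XAV939, against 1527, 1661 and 1784 in heterozygous cultures. All null signals lay below all heterozygous ones. The log2 ratio was -2.56 ± 0.25 (SD, n = 3), a 5.88-fold lower level, with an adjusted p of 5.5e-07 by limma, and 0.843% of genes were lower still. A second P4ha1 probe gave 86.2, 67.9 and 83.3 in null cultures with XAV939, which is not well above background on any array, against 163, 157 and 179 in heterozygous cultures. Its level was at least 2.11-fold lower (adjusted p = 3.99e-05 by limma over probes), the heterozygous mean being set against the higher of the dim probe's own signal and the lowest signal of a probe well above background.

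P4ha2, an alternative catalytic subunit, had signals of 2131, 1548 and 1801 in null cultures with XAV939, against 12439, 8649 and 10567 in heterozygous cultures. Its log2 ratio was -2.53 ± 0.04 (SD, n = 3), 5.76-fold lower, with an adjusted p of 2.62e-07 by limma. The arrays gave nearly the same value for it, and the groups did not overlap. P4ha1 and P4ha2 differed by 0.03 ± 0.28 in log2 ratio (P4ha2 minus P4ha1, SD, n = 3, exact sign-flip permutation test, two-sided, p = 1). The differences were -0.27, 0.27 and 0.09, on both sides of 0. With the dim P4ha1 probe averaged in, the data give only a limit, a difference no lower than -0.71, and so no measured turn of sign. With 3 arrays the test cannot go below 0.25.

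Plod2, the lysyl hydroxylase of collagen telopeptides, had signals of 541, 520 and 651 in null cultures with XAV939, against 4207, 5004 and 3447 in heterozygous cultures. Its log2 ratio was -2.88 ± 0.44 (SD, n = 3), 7.34-fold lower, with an adjusted p of 1.12e-06 by limma. Its paralog Plod1, which hydroxylates lysines of the helix, had signals of 183, 156 and 170 in null cultures with XAV939, against 235, 184 and 155 in heterozygous cultures, and the groups overlapped. The log2 ratio of Plod1 was -0.16 ± 0.26, with a 95% interval from -0.43 to 0.12 and an adjusted p of 0.285 by limma. A second Plod1 probe gave 0.05 ± 0.19 (SD, n = 3). Without array 3 the ratio of Plod1 was -0.30 and its adjusted p by limma was 0.0125, so that array decides whether it is called. Plod2 lay below Plod1 on all 3 arrays, with differences of -2.60, -3.02 and -2.54 on the log2 scale (mean -2.72 ± 0.26, SD, n = 3), with an exact permutation p of 0.25, the smallest the test can give.

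The partners of these enzymes were also measured. P4hb, protein disulfide isomerase and the other subunit of the prolyl 4-hydroxylase, had signals of 11678, 9749 and 9444 in null cultures with XAV939, against 22147, 18339 and 20115 in heterozygous cultures. It was lower, at -0.98 ± 0.10 (SD, n = 3), 1.97-fold, with an adjusted p of 4.25e-05 by limma, and the groups did not overlap. Plod3, a lysyl hydroxylase that also glycosylates collagen, was lower at -0.84 ± 0.12, 1.79-fold, with an adjusted p of 0.000112 by limma. P4ha3, a minor catalytic subunit, gave -0.25 ± 0.11 and an adjusted p of 0.0538 by limma, which does not pass. Over the alternatives with array 3 turned, P4ha3 ranged from -0.74 to -0.083, with adjusted p-values from 0.00099 to 0.576 by limma. Whether P4ha3 is called thus depends on the processing. Its second probe was called lower, at -0.82 ± 0.20 (adjusted p = 0.000273 by limma over probes), with null signals well above background on 1 array of 3. For the first P4ha3 probe they were well above background on 2 arrays of 3. With median centring P4hb gave -0.65 and an adjusted p of 0.0721 by limma, and Plod3 -0.61 with 0.0644.

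HIF binds DNA at the core ACGTG or GCGTG. The promoters of 8 of the 10 members were in RefSeq's windows of 250 bases before to 50 after the gene start (GRCm38.p6), with Plod2 and Ndrg1 the ones not matched. The windows of 5 are shown to compare the 2 strongly lower prolyl hydroxylases, the hydroxylase that did not pass, and 2 HIF target genes with several cores. Capitals mark either core on either strand, so that CACGT and CACGC are the cores read on the other strand. P4ha1 lies at chr10:59323046-59323345 (+), P4ha2 at chr11:54100674-54100973 (+), Plod1 at chr4:147936727-147937026 (-), Bnip3 at chr7:138909457-138909756 (-) and Ankrd37 at chr8:45999801-46000100 (-).
P4ha1: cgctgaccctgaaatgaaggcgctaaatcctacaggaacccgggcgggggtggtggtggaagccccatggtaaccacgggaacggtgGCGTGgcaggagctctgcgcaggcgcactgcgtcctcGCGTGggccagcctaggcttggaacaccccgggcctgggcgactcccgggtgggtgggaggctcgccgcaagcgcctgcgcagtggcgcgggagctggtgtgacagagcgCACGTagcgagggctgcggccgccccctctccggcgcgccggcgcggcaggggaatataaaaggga
P4ha2: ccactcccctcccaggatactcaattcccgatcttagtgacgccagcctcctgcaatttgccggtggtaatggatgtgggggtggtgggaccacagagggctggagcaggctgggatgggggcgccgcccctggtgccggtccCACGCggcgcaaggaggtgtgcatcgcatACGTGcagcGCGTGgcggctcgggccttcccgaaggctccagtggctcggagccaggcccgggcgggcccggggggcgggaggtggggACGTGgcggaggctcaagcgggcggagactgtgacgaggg
Plod1: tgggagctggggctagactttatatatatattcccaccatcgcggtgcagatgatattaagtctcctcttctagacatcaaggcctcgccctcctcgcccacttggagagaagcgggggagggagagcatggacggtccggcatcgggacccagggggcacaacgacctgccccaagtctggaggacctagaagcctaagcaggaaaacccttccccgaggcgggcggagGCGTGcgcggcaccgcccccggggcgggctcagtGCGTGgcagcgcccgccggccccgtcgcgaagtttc
Bnip3: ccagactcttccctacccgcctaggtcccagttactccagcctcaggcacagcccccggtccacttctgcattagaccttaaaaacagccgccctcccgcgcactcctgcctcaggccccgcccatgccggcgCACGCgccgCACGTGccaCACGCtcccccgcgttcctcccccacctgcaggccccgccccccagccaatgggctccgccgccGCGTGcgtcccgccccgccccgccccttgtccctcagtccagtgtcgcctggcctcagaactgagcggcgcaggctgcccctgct
Ankrd37: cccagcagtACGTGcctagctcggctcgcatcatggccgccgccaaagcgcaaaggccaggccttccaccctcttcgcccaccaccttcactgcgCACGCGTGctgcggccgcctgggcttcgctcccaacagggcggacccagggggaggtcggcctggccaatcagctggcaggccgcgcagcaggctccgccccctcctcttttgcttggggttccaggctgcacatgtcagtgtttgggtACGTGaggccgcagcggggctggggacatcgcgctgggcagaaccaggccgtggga
P4ha1 held 3 cores, P4ha2 4, Plod1 2, Bnip3 5 and Ankrd37 4. Of the members not shown, Egln1 held 2, Egln3 1, and Vegfa 0 and 2 in its windows. Whether the number of cores goes with the ratios was not tested. The pair of ACGTG starts in Bnip3 that share CACGTG, the E-box, can bind other factors too, and 7.15% of all windows hold it. At least 1 core stood in 8 of 9 member windows (Vegfa has a pair of windows, the first with 0 cores), against 43.8% of all 32851 windows, and in 40.4% of them when cores inside CACGTG are set apart. The Vegfa cores counted lie only in its second window, chr17:46025114-46025413 (-). That window is downstream of the first, chr17:46032328-46032627 (-), so the upstream start of Vegfa has no core in its window. Whether the downstream window acts as a promoter of Vegfa was not tested. At least 3 cores stood in 4 of 9 member windows, against 8.93% of all windows. Each core holds the letters CG. The member windows were 54.7% to 86.0% G and C, and the shares over all windows were not matched for this. A match is only the presence of these letters in the window. The members were chosen by name, hypoxia-induced genes among them, so these shares describe the set and do not test control by HIF.

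**Figure D3:**
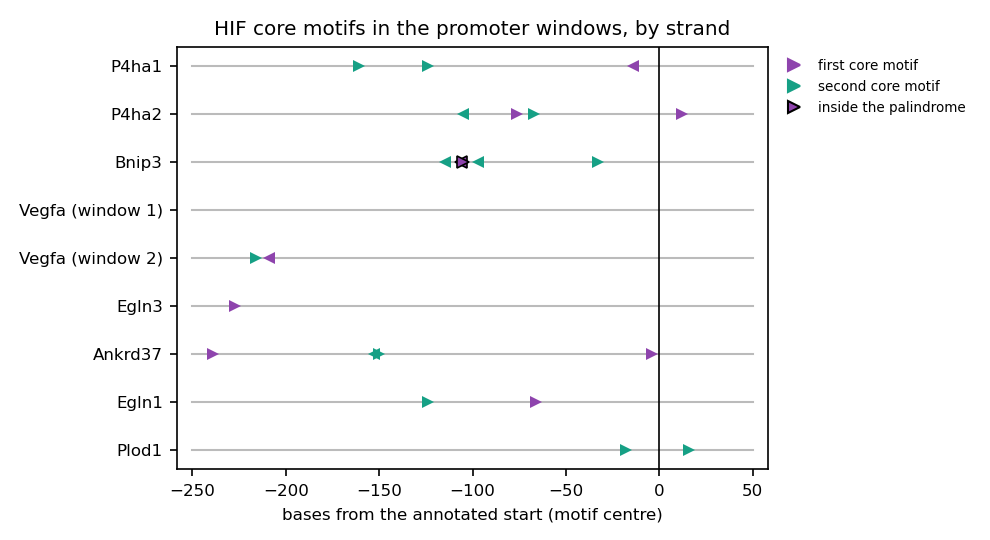
Centre of each ACGTG (first core, purple) and GCGTG (second core, green) in bases from the gene start in the 9 promoter windows, with the arrow giving the strand and a black edge the pair inside CACGTG in Bnip3. The most upstream bases of the cores, on either strand, lie at -107, -78, -69 and 11 in P4ha2 and at -20 and 15 in Plod1.

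Both oxygen sensors among the members passed the test, Egln3 under every alternative with array 3 turned and Egln1 not. Egln3, a HIF prolyl hydroxylase that HIF itself induces, had signals of 1582, 1207 and 1524 in null cultures with XAV939, against 3448, 2836 and 2568 in heterozygous cultures. Its log2 ratio was -1.04 ± 0.25 (SD, n = 3), 2.05-fold lower, with an adjusted p of 8.01e-05 by limma, and the groups did not overlap. Its second probe had 323, 271 and 333 in null cultures with XAV939, against 587, 545 and 432 in heterozygous cultures, a log2 ratio of -0.75 ± 0.33. Egln1, the main sensor in most cells, was a dim probe, with 94.4, 80.5 and 90.7 in null cultures with XAV939, against 136, 122 and 94.3 in heterozygous cultures. The lowest heterozygous signal was at the level of the highest null signal. Its log2 ratio of -0.39 ± 0.29 passed with an adjusted p of 0.0227 by limma. The call was lost without array 1 (-0.33, adjusted p = 0.123 by limma), without array 2 (-0.29, 0.190), with median centring (-0.39, 0.175), with marked backgrounds kept (-0.08, 0.470) and in the authors' deposited values (-0.21, 0.199). With the Feature Extraction log ratio it was -0.98.

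Egln2, the remaining HIF prolyl hydroxylase, gave 0.12 ± 0.22 with an adjusted p of 0.394 by limma, and its second probe 0.48 ± 0.09, 1.39-fold higher (adjusted p = 0.00301 by limma over probes). With the mean over both probes Egln2 was called higher, at 0.30 (adjusted p = 0.0188 by limma). Egln3 lay below Egln1 on all 3 arrays, with a mean difference of -0.64 ± 0.05 on the log2 scale (SD, n = 3), and below Egln2 with -1.15 ± 0.09, each with an exact permutation p of 0.25. The Egln1 probe was dim, and its ratio was -0.98 with the Feature Extraction log ratio. Egln3 ranged only from -1.18 to -0.83 over the alternatives with array 3 turned. The size of the Egln3 minus Egln1 difference thus depends on the processing.

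All 4 hypoxia-induced genes were lower in the null cultures with XAV939, by 1.39-fold (Ankrd37) to 8.48-fold (Ndrg1). Ndrg1, a stress-responsive gene of the N-myc downstream regulated family, had signals of 614, 404 and 599 in null cultures with XAV939, against 5570, 4850 and 3350 in heterozygous cultures. Its log2 ratio was -3.08 ± 0.56 (SD, n = 3), 8.48-fold lower, with an adjusted p of 1.84e-06 by limma, and 0.367% of genes were lower still. Its ratios were -3.18, -3.59 and -2.48, and the groups did not overlap.

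Vegfa, the growth factor of vessels, had 2 probes of different transcript accessions. The brighter had signals of 2262, 2163 and 1375 in null cultures with XAV939, against 5224, 5774 and 5653 in heterozygous cultures, a log2 ratio of -1.55 ± 0.43 (SD, n = 3), 2.94-fold lower, with an adjusted p of 3.38e-05 by limma. The dimmer had 196, 147 and 253 in null cultures with XAV939, against 1474, 1238 and 1683 in heterozygous cultures, a log2 ratio of -2.91 ± 0.17, 7.50-fold lower. Neither probe's groups overlapped. The dimmer minus the brighter ratio was -1.70, -1.66 and -0.70, below 0 on every array (exact permutation p = 0.25, the smallest possible). VEGF protein was in the medium of both cultures, and the array reads the cells' own mRNA.

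Bnip3, a mitochondrial protein that promotes mitophagy, had signals of 21061, 18359 and 13302 in null cultures with XAV939, against 55517, 61593 and 48763 in heterozygous cultures. Its log2 ratio was -1.67 ± 0.25 (SD, n = 3), 3.19-fold lower, with an adjusted p of 4.81e-06 by limma, and the groups did not overlap. A second probe had 7921, 7172 and 6538 in null cultures with XAV939, against 20271, 22183 and 19275 in heterozygous cultures, a ratio of -1.51 ± 0.14. The remaining probe had 330, 254 and 319 in null cultures with XAV939, against 575, 533 and 571 in heterozygous cultures, a ratio of -0.90 ± 0.15. All 3 probes were lower on every array. Ankrd37, a small ankyrin-repeat protein induced by HIF in many cells, had 409, 302 and 426 in null cultures with XAV939, against 610, 499.6 and 460 in heterozygous cultures. Its log2 ratio of -0.47 ± 0.32, 1.39-fold lower, passed with an adjusted p of 0.0118 by limma. The groups did not overlap, but the call was lost without array 1 (-0.42, adjusted p = 0.0559 by limma), without array 2 (-0.35, 0.122), with median centring (-0.39, 0.159) and with marked backgrounds kept (-0.25, 0.146).

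**Figure D4:**
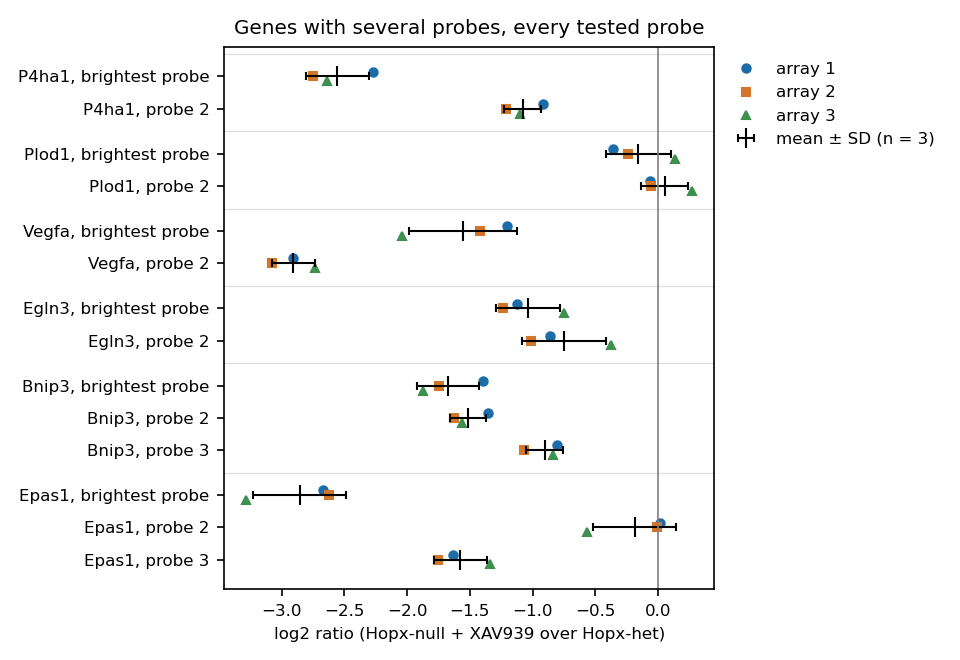
Log2 ratio of every probe of the 5 members with several probes and of Epas1, 1 point per array with the mean and SD, brightest probe on top. The dimmer minus the brighter probe averaged -1.35 for Vegfa, and probe 2 of P4ha1, not well above background in null cultures with XAV939, shows only a limit.

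Array 1 lay on slide 1, and arrays 2 and 3 on slide 2. Values on the slide of array 1 and means on the other slide were -2.27 and -2.70 for P4ha1, -1.21 and -1.73 for Vegfa, -0.53 and -0.33 for Egln1, -0.58 and -0.42 for Ankrd37, and -0.36 and -0.05 for Plod1. They were -2.55 and -2.52 for P4ha2, -2.96 and -2.84 for Plod2, -3.18 and -3.03 for Ndrg1, -1.12 and -0.99 for Egln3, and -1.40 and -1.81 for Bnip3, so all 10 members were below 0 on both slides. With slide as a fixed term 9 members were lower, as before.

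Of the genes that form or regulate HIF, Epas1, Vhl and Arnt were lower and Hif1a did not pass. Epas1, the HIF2 alpha subunit, had 4111, 4466 and 3181 in null cultures with XAV939, against 26179, 27458 and 30961 in heterozygous cultures, and its log2 ratio was -2.86 ± 0.37 (SD, n = 3), 7.25-fold lower, with an adjusted p of 7.4e-07 by limma. Another Epas1 probe gave -1.58 ± 0.21. The remaining probe gave -0.19 ± 0.33, with an adjusted p of 0.258 by limma over probes, and had 3890, 3680 and 3289 in null cultures with XAV939, against 3842, 3698 and 4882 in heterozygous cultures, which overlap. The Epas1 probes thus differ in whether the fall is called. Hif1a gave -0.0048 ± 0.10 (adjusted p = 0.971 by limma), and its sign turned under several settings. Vhl gave -0.49 ± 0.28 (adjusted p = 0.00789 by limma) and Arnt -0.33 ± 0.06 (0.0151). Both calls were lost with median centring (0.304 and 0.685), with marked backgrounds kept (0.0679 and 0.142), without array 1 (0.0567 and 0.0907) and without array 2 (0.0738 and 0.0789). Of the 14 HIF subunits and regulators, 8 were lower (57.1%, against 33.0% of all genes) and 2 higher (14.3%, against 31.5%), with a median of -0.33. They included Hif3a (-1.16 ± 0.19) and Cited2 (-1.06 ± 0.06) among the lower, and Arnt2 (1.47 ± 0.30) and Siah1a (0.63 ± 0.27) were the higher. The lower count was 3 with median centring and with marked backgrounds kept, and 5 without array 1 or without array 2. Of all 14705 genes, 2019 were lower with median centring and 2257 with marked backgrounds kept. Without array 1 the number was 4141, and without array 2 it was 3709. The higher count was 1 with median centring and in the authors' deposited values, and 0 with marked backgrounds kept.

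Of 43 other HIF target genes tested of 46 listed, 23 were lower, 7 higher and 13 not called (median -0.31). The lower genes were 53.5% of those tested, against 33.0% of all genes, and the higher 16.3%, against 31.5%. With median centring 10 were lower, and with marked backgrounds kept 11, where 2019 and 2257 of all 14705 genes were. Cdkn1a, a cell-cycle inhibitor (-1.63 ± 0.09), and Bnip3l, a mitophagy receptor related to Bnip3 (-1.48 ± 0.18), were among the lower. Angptl4, an inhibitor of lipoprotein lipase (1.76 ± 0.19), and Cxcl12, a chemokine (1.57 ± 0.35), were among the higher. Of 19 genes of glucose uptake and glycolysis, 9 were lower, among them the glucose transporter Slc2a3 (-1.74 ± 0.36), Aldoc (-1.48 ± 0.31) and Eno2 (-1.34 ± 0.17), and 2 higher, Pkm (1.07 ± 0.18) and Eno1 (0.39 ± 0.40, lower on 1 array). The lower glycolysis genes were 47.4% of those tested, against 33.0% of all genes, and the higher 10.5%, against 31.5%. With median centring 3 of the 19 were lower, where 2019 of all 14705 genes were. The higher count was 1 with median centring, with marked backgrounds kept, without array 1 and without array 2. Of the 9 VEGF ligands and receptors, 3 were lower (the VEGF receptor Flt1 -1.20 ± 0.18, Nrp1 -0.53 ± 0.19, Pgf -0.53 ± 0.08) and 2 higher (Vegfd 0.57 ± 0.10, Kdr 0.53 ± 0.27). The lower share, 33.3%, was near the 33.0% of all genes, and the higher share was 22.2%, against 31.5%. The lower count was 1 with median centring and with marked backgrounds kept and 5 with a dye term, and the higher count was 1 under the first pair of these settings, with the mean over probes and without array 1. Of 6 family members of Ndrg1 and Bnip3, 3 were lower (Ndrg2 -1.68 ± 0.28, Bnip3l, Ndrg4 -0.28 ± 0.18) and 1 higher (Bnip2 0.70 ± 0.06). The lower were 50% of these genes, against 33.0% of all genes, and the higher 16.7%, against 31.5%. Ndrg4 passed narrowly, with an adjusted p of 0.0463 by limma. The lower count was 2 with median centring, with marked backgrounds kept, in the authors' deposited values and when any 1 array was left out.

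Of 29 other collagen modification genes tested of 31 listed, 18 were lower and 4 higher (median -0.70). Loxl2, a cross-linking lysyl oxidase (-2.15 ± 0.31), Serpinh1 (-2.08 ± 0.17), the collagen chaperone, Adamts2, a procollagen N-proteinase (-2.03 ± 0.28) and P3h2 (-1.99 ± 0.14) were lower, and Pcolce2 (1.88 ± 0.23), Colgalt1 (0.40 ± 0.06), Pcolce (0.40 ± 0.17) and Adamts14 (0.35 ± 0.19) higher. Of 18 collagen chains tested of 22 listed, 13 were lower and 2 higher (median -0.81), Col1a1 at -2.81 ± 0.38, Col4a1 at -1.85 ± 0.30 and Col4a2 at -1.75 ± 0.09 the lowest and Col14a1 (1.70 ± 0.11) and Col5a3 (0.60 ± 0.16) the higher. The lower genes were 62.1% of the collagen modification genes and 72.2% of the chains tested, against 33.0% of all genes. The higher were 13.8% and 11.1%, against 31.5% of all genes. With median centring 7 collagen modification genes and 9 chains were lower, where 2019 of all 14705 genes were. The count of higher collagen modification genes was 1 with median centring and in the authors' deposited values, 2 with marked backgrounds kept and without array 2, and 6 without array 3. For the chains it was 1 with median centring and 0 with marked backgrounds kept.

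**Figure D5:**
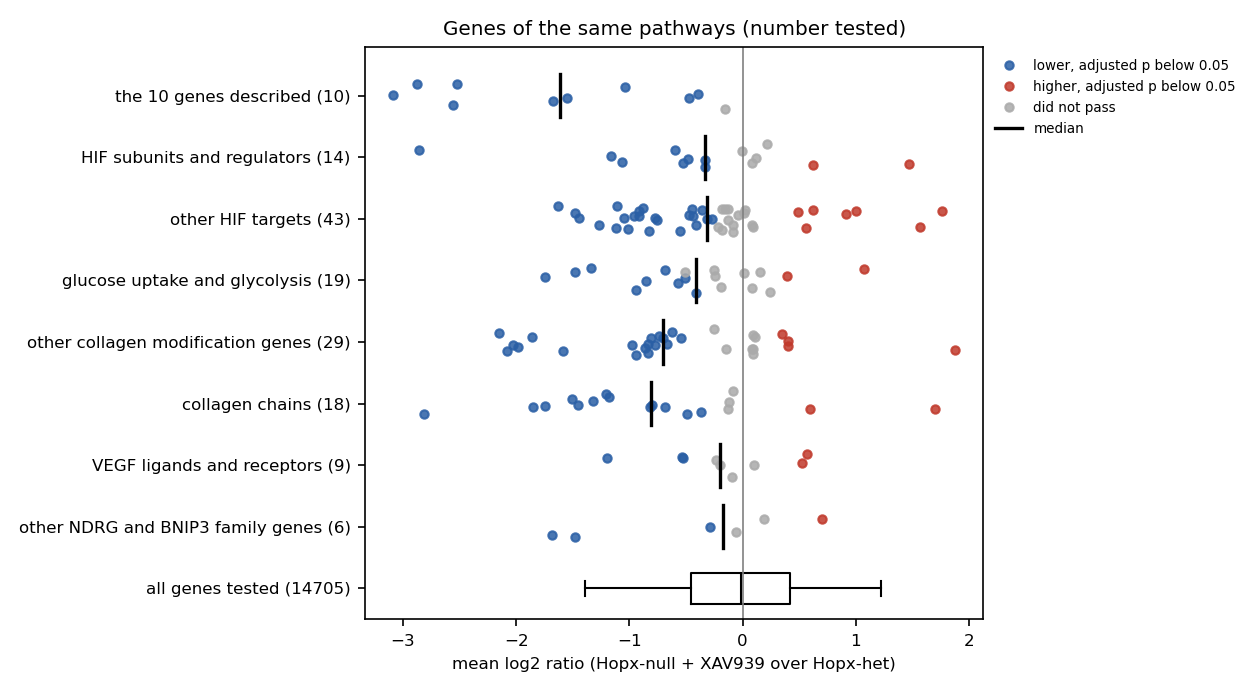
Mean log2 ratio of each tested gene by list, coloured by its call, with the list's median as a black line and all genes tested as a box (quartiles, with whiskers from the 5th to the 95th percentile). The median of the collagen chains lay at -0.81 and that of the 10 members at -1.61, against -0.01 for all genes.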

How the data were processed

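RNA of null embryoid bodies with XAV939 and of heterozygous ones was hybridised together on 3 Agilent 2-colour arrays (design 026655). The deposited spot and local background values are median intensity per channel, extracted with Agilent Feature Extraction, which is version 8.5.1.1 in the submitters' processing notes and 11.5.1.1 in the headers; the annotation build is mm9 per the file headers. A log10 ratio, Cy5 over Cy3, is also deposited. The authors' deposited processed values behave as log2 ratios: regressed on the scanner ratios they had slopes of 0.688, 0.799 and -0.797. Their medians were 0.085, -0.08 and 0.053, and how they were centred and normalised is unknown.

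Probes were named through RefSeq accessions (28025 of 39429 had 1 symbol, 11404 none). Signals were corrected by normexp (offset 50), with local backgrounds marked as outliers replaced by the channel's median unmarked one, and normalised by loess within each array in limma 3.58.1 (R 4.3.3). Control spots and outlier-marked spots were left out. Tested probes were well above background in 1 or both channels of every array, and a gene was its brightest tested probe. limma compared the mean ratio of 3 arrays with 0 over 14705 genes, with Benjamini-Hochberg adjustment and a threshold of 0.05. The p-values reflect only how the 3 arrays spread (median SD 0.166), which may be technical. The fit was tested on simulated ratios with known changes. Array 3 was turned in sign. All members were named, and of other lists the genes with the largest called changes or in small counts. The members and lists were chosen with earlier results of these data known.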

Additional observations from a re-analysis of the deposited data

How the results depend on the processing

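With array 3 turned, each member's mean ratio stayed below 0 under all 16 alternatives, and between 7 and 10 members were called lower and 0 higher. With array 3 as labelled, 0 members and 0 genes in either direction were called by limma, with 27 lower and 13 higher genes at an unadjusted p below 0.05. Genes called numbered 2257 lower and 2664 higher with marked local backgrounds kept, and 2019 lower and 3034 higher with median centring. Hif1a turned to 0.066 with marked backgrounds kept, 0.0076 with limma's flooring of small signals, 0.19 with median centring, 0.063 with the Feature Extraction log ratio, 0.10 in the authors' deposited values, 0.014 with a dye term and 0.0038 with slide as a fixed term, and ranged from -0.042 to 0.050 when arrays were left out in turn. Egln2 turned to -0.13 with array 3 as labelled and ranged from -0.0066 to 0.20 without each array. It was 0.42 with median centring (adjusted p = 0.157 by limma) and was called higher, at 0.30 (0.0188), with the mean over probes. The P4ha2 minus P4ha1 difference came to -0.71 with the mean over probes, which is only a limit, since 1 P4ha1 probe was not well above background in null cultures with XAV939. The cause of these changes was not tested. Keeping outlier-marked spots and slide as a fixed term were chosen after seeing the data. Not run were naming by a gene symbol column, which the files do not hold, and slide as a random block, which limma could not estimate from 3 arrays. Each ratio pairs both cultures on its array, so the test is already paired and no further replicate block could be fitted. The number of arrays, and for Egln1 and the dim P4ha1 probe the signal over background, limit the precision.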
